A study of Mus musculus with 12 samples.

Results

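The glutathione S-transferases described here are the 10 mouse genes Gsta3, Gsta4, Gstm1, Gstm2, Gstm3, Gstm4, Gstp1, Gstt1, Gstt2 and Gstt3, measured in the livers of mice with and without a knockout of Ppara, the gene of a fatty acid-binding nuclear receptor. The genes were chosen by name, with earlier results of these data known. A transcript cluster, the unit that summarises the short probes of a gene on the array, was taken where the platform annotation gave one of these symbols. This found 11 of the 41345 transcript clusters, 10 that carry a single symbol, 1 for each gene, and 1 joint cluster that names Gstp1 and Gstp2 together. The 10 genes are among 22180 genes that have a cluster of their own. The tested animals were 6 Ppara KO females and the controls 6 WT females, all adult C57Bl/6 mice aged 12 to 14 weeks, with 1 MoGene-2_0-st array per liver. The construct of the Ppara allele, the tissue in which it is deleted, the time of day, the feeding state and any array batch are not given in the sources used here.

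Glutathione S-transferases join the tripeptide glutathione to reactive electrophiles, among them drug metabolites, environmental toxins and products of lipid peroxidation. The cytosolic enzymes work as dimers and fall into classes by sequence, of which alpha, mu, pi and theta are represented here. In hepatocytes the conjugates leave the cell through ABC transporters and are trimmed to mercapturic acids. In mouse liver several of these genes respond to the oxidative stress factor NRF2, which binds antioxidant response elements (ARE), and to the xenobiotic receptors CAR and PXR.

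Promoter sequence of RefSeq (GRCm38.p6) was found for 8 of the 10 genes. Gsta4 and Gstt2 had no entry in the table used. The 4 windows printed here hold the 250 bases before the annotated start, 5′ to 3′ on the gene's strand, for the 2 genes that fell, for Gstm1, the neighbour whose window was most like that of Gstm3, and for Gsta3, the gene with the largest positive difference. They lie at chr3:107969175-107969424, minus strand (Gstm3), chr3:108017819-108018068, minus strand (Gstm1), chr10:75797732-75797981, minus strand (Gstt1) and chr1:21240335-21240584, plus strand (Gsta3). Capitals mark matches to an ARE core (TGACNNNGC), a GC box (GGGCGG) or a TATA box (TATAAA).
Gstm3: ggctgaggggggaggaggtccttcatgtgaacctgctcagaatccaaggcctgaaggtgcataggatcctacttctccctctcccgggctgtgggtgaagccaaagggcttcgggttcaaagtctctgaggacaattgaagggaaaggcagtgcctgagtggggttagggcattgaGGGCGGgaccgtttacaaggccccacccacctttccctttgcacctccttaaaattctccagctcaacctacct
Gstm1: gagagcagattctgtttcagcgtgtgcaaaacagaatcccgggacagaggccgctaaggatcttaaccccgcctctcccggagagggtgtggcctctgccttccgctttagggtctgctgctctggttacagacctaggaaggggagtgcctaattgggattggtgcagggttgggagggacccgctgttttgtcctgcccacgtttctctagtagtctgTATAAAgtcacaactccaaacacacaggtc
Gstt1: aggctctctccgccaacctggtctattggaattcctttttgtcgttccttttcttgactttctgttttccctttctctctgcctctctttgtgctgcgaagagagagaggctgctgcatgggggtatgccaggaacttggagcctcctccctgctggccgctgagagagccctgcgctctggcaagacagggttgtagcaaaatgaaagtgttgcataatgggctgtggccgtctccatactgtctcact
Gsta3: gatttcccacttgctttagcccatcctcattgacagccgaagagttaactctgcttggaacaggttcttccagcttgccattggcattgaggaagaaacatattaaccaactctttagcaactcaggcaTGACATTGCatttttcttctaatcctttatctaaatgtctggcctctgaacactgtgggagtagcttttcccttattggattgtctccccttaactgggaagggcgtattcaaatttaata
Counting back from the start site, the match of Gstm3 is a GC box at positions -74 to -69, that of Gstm1 a TATA box at -30 to -25 and that of Gsta3 an ARE core, TGACATTGC, at -121 to -113. The Gstt1 window held none of these letters.

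The 8 genes have 11 such windows, since some have more than 1 annotated start, and each motif was searched on both strands. An ARE core occurred in 1 of the 11 windows, that of Gsta3, against 10.16% of 32851 RefSeq promoter windows of this length. The AP-1 site TGACTCA, which shares its first letters with the ARE core, occurred in Gstp1 only, at -74 to -68 and in the reverse orientation, against 4.46% of all windows. A GC box was present in 4 of the 11 windows, from Gstm3, Gstm4 (overlapping windows) and Gstp1, against 32.74% of all windows. A TATA box was present in 1 of the 11 windows, from Gstm1, against 12.37%. None of the 8 genes held 2 copies of AGGTCA in a row with 1 base between them, the form to which PPAR and RXR pairs bind, where 0.03% of all windows did. None held a single AGGTCA (14.02% of all windows), a single AGTTCA (11.84%), the E-box CACGTG read by clock factors (6.02%) or a D-box, TTATGTAA or TTACGTAA (0.93%). The printed windows of Gstm3 and Gstm1 were identical at 57.9% of aligned positions, and Gstm3 with the other Gstm1 window at 46.8%. Taking for each of 28 pairs of these genes its most alike windows, Gstm3 and Gstm1 had the highest identity, and the median was 48.6%. Single windows of these genes went down to 43.1%.

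Gene levels are deposited log2 values made with robust multi-array averaging (RMA), and each difference is Ppara KO minus WT on that scale, given with the standard error (SE) from limma, a linear model that shares variance information between genes. Calls were made at an adjusted p under 0.05, by Benjamini-Hochberg adjustment over 22180 genes. In this test 2 of the 10 genes fell in Ppara KO livers, Gstm3 and Gstt1, and 0 rose. Of all genes tested, 10.2% were called, 5.77% lower and 4.46% higher. Differences were below 0 for 7 of the 10 genes, where 47.6% of all genes were below 0. Their median was -0.22, where the median of all genes was 0.0090, and they ran from -0.56 for Gstm3 to 0.26 for Gsta3. Over all genes the median size of a difference was 0.10 and the median SE was 0.0926.

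**Figure D1:**
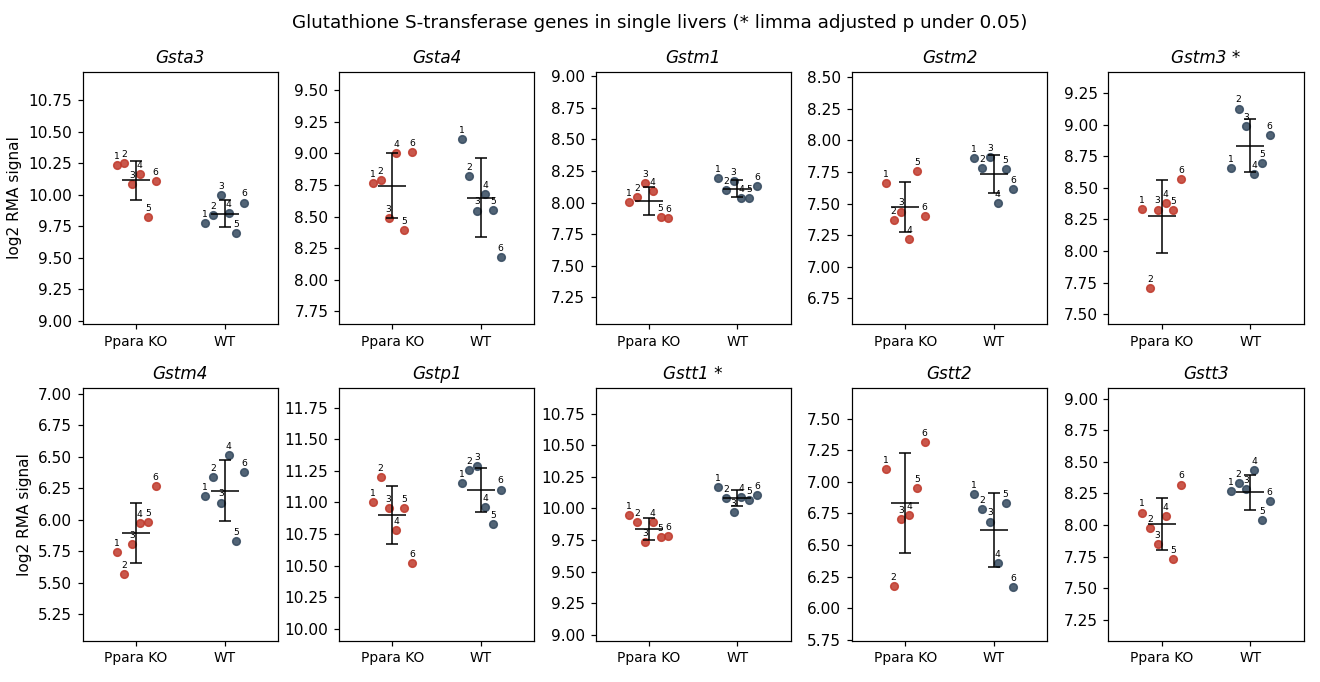
Log2 RMA values of the 10 glutathione S-transferase genes, 1 panel per gene, for 6 Ppara KO livers (red, left) and 6 WT livers (dark, right). Points are single animals with their numbers, lines are means with SD, every panel spans 2 log2 units, and asterisks mark limma adjusted p under 0.05. The animals of Gstm3 and Gstt1 lie in separate ranges by genotype, and those of the other 8 genes overlap.

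The mu class enzymes act on epoxides and other electrophiles, and their genes stand beside each other on chromosome 3. Gstm3 showed the largest difference of the 10 genes. Its lowest, median and highest values were 7.71, 8.33 and 8.57 in Ppara KO livers, against 8.61, 8.81 and 9.13 in WT livers. All 6 Ppara KO livers lay below all 6 WT livers, a separation in this direction that 3.78% of all genes showed (2.73% in the other direction). Ppara KO animal 2 was far below the other 5 Ppara KO animals, whose values ran from 8.32 to 8.57. Gstm3 averaged 8.27 ± 0.29 in Ppara KO livers and 8.84 ± 0.21 in WT livers (SD, n = 6 each), a difference of -0.56 (SE 0.13, 95% interval -0.84 to -0.28) or 1.48-fold lower, with a limma adjusted p of 0.0119. Leaving out any 1 animal kept the call, with differences from -0.62 to -0.45, the smallest without Ppara KO animal 2.

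The other 3 mu class genes of the set were not called. Gstm4 had a lowest, median and highest value of 5.57, 5.89 and 6.26 in Ppara KO livers, against 5.83, 6.26 and 6.51 in WT livers. WT animals 1, 3 and 5 lay within the Ppara KO range, and WT animals 2, 4 and 6 lay above it. The difference of Gstm4 was -0.34 (SE 0.12, limma adjusted p = 0.104), and it stayed uncalled in 23 of 26 alternative settings. It passed the threshold without WT animals 1, 3 and 5, without WT animal 5 (adjusted p = 0.0333) or without Ppara KO animal 6 (adjusted p = 0.0438). WT animal 5 was the lowest WT liver and Ppara KO animal 6 the highest Ppara KO liver. Leaving out such an animal widens the difference by construction. Gstm2, whose human counterpart also inactivates dopamine-derived quinones, had values of 7.22, 7.42 and 7.76 in Ppara KO livers, against 7.50, 7.78 and 7.87 in WT livers. Ppara KO animals 1 and 5 were in the WT range and the other 4 were below it. Its difference was -0.26 (SE 0.0972, limma adjusted p = 0.111), and it stayed uncalled in 25 of 26 alternative settings. The exception was without Ppara KO animal 5, the highest of its group (adjusted p = 0.0453). Gstm1, a major mu class enzyme of mouse liver, had values of 7.88, 8.02 and 8.16 in Ppara KO livers, against 8.03, 8.12 and 8.19 in WT livers. Its ranges overlapped for 3 Ppara KO animals, and its difference of -0.10 (95% interval -0.24 to 0.04, limma adjusted p = 0.413) was the smallest of the 4.

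Along chromosome 3, in the order of the RefSeq annotation, the mu class genes run Gstm5, Gstm7, Gstm6, Gstm3, Gstm2, Gstm1 and Gstm4. Gstm7 and Gstm6, which are outside the 10 genes, stand next to Gstm3 on one side. Gstm7 had a lowest, median and highest value of 8.15, 8.71 and 8.99 in Ppara KO livers, against 9.01, 9.10 and 9.21 in WT livers. The genotypes did not overlap, and Gstm7 was lower in Ppara KO by 1.35-fold (difference -0.44, SE 0.11, limma adjusted p = 0.0235). The call of Gstm7 was lost without WT animal 2 (adjusted p = 0.0531) and when p-values were adjusted over all 41345 clusters (adjusted p = 0.0532). Gstm6 differed by -0.26 and was not called (adjusted p = 0.0934). Gstm5 was read only together with another transcript, in a cluster that differed by -0.25 with non-overlapping ranges (adjusted p over all clusters = 0.0906). All 6 separately measured mu class genes were thus below 0, in the reported fit and with any 1 animal left out. In the reported fit 47.6% of all genes were below 0, and Gstm1 was the mu class gene closest to 0. Genes of this class are near-copies of one another, and whether probes of one read transcripts of another was not tested.

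**Figure D2:**
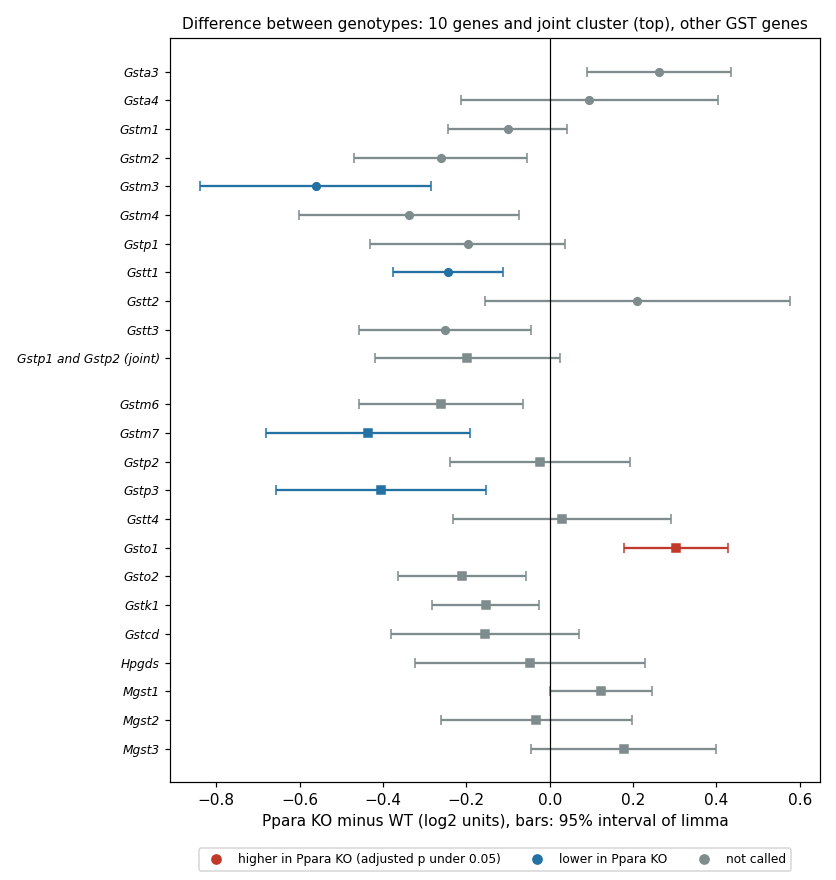
Difference of each glutathione S-transferase gene, Ppara KO minus WT in log2 units (horizontal axis), with its 95% limma interval. Circles are the 10 genes, squares the joint Gstp1 and Gstp2 cluster and, in the lower block, 13 further genes of the family, and colour marks calls at an adjusted p under 0.05. Gstm3, Gstt1, Gstm7 and Gstp3 are called lower and Gsto1 is called higher.

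The theta class enzymes conjugate small halogenated compounds and peroxides. Gstt1, which acts on dihalomethanes, was the other gene that fell. Its lowest, median and highest values were 9.74, 9.84 and 9.95 in Ppara KO livers, against 9.97, 10.09 and 10.17 in WT livers. The ranges did not overlap, although the highest Ppara KO liver and the lowest WT liver lay close together, and the spread within each genotype was the narrowest of the theta genes. Gstt1 averaged 9.84 ± 0.0856 in Ppara KO livers and 10.08 ± 0.0647 in WT livers (SD, n = 6 each), a difference of -0.24 (SE 0.0621, 95% interval -0.38 to -0.11), 1.18-fold lower, with a limma adjusted p of 0.0202. The call held without any 1 animal, with differences from -0.27 to -0.22.

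Gstt3, a theta class gene next to Gstt1 on chromosome 10, had values of 7.73, 8.02 and 8.32 in Ppara KO livers, against 8.04, 8.28 and 8.44 in WT livers. Only Ppara KO animal 6, at 8.32, lay above the WT median. Its difference of -0.25 was about the size of that of Gstt1 but with a larger error (SE 0.0967, limma adjusted p = 0.124). Gstt3 stayed uncalled in 25 of 26 alternative settings. The exception was without Ppara KO animal 6, the highest of its group (adjusted p = 0.0443). Gstt2, whose human counterpart acts on menaphthyl sulfate and organic peroxides, spread widely, with values of 6.18, 6.85 and 7.32 in Ppara KO livers, against 6.17, 6.73 and 6.91 in WT livers. The lowest animals of both genotypes were almost equal, and Ppara KO animals 1, 5 and 6 lay above every WT liver. The difference of Gstt2 was 0.21 (SE 0.17, 95% interval -0.16 to 0.58, limma adjusted p = 0.53), so a change in either direction was not resolved. Gstt4, which lies between Gstt1 and Gstt2 and is outside the 10 genes, differed by 0.030 (adjusted p = 0.928). Its means, 3.18 in Ppara KO livers and 3.15 in WT livers, lay below the lowest array median of 4.13.

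The pi class gene Gstp1 encodes an enzyme that is more abundant in male than in female mouse liver and whose loss in mice lessens paracetamol injury. Its lowest, median and highest values were 10.52, 10.96 and 11.20 in Ppara KO livers, against 10.83, 11.13 and 11.29 in WT livers. Ppara KO animals 4 and 6 lay below every WT animal, and the other 4 lay in the WT range. The difference of Gstp1 was -0.20 (SE 0.11, 95% interval -0.43 to 0.04, limma adjusted p = 0.316). The joint cluster of Gstp1 and Gstp2 gave values of 9.21, 9.46 and 9.88 in Ppara KO livers, against 9.55, 9.69 and 9.81 in WT livers. Here Ppara KO animal 2 was the highest of the 12 livers and 5 Ppara KO animals lay below every WT animal. Its difference was also -0.20 (SE 0.10, adjusted p over all clusters = 0.34). Over all clusters 5.24% were called, 2.87% lower and 2.38% higher, and of the 11 clusters that hold one of the 10 genes 2 were called, those of Gstm3 (adjusted p = 0.0311) and Gstt1 (adjusted p = 0.038). Adjusted over all clusters, these 2 calls fell to 1 or 0 without any 1 of 11 animals, and stayed at 2 without Ppara KO animal 5.

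The pi class neighbours outside the 10 genes gave unlike values. Gstp2 differed by -0.023 (limma adjusted p = 0.931). Gstp3 was lower in Ppara KO by 0.40 log2 units (difference -0.40, SE 0.12, limma adjusted p = 0.0412), with values of 8.28, 8.45 and 8.75 in Ppara KO livers, against 8.48, 8.94 and 9.14 in WT livers. The ranges of Gstp3 overlapped, and 9 of the 12 animals each ended its call when left out: all but WT animals 4 and 5 and Ppara KO animal 6. The windows before the Gstp1 and Gstp2 starts were 78.5% identical, and both hold the AP-1 letters. They were the most alike pair among windows of different alpha, mu, pi and theta genes, the only classes compared.

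The alpha class enzymes handle products of lipid peroxidation and some carcinogen epoxides. Gsta3, which in mice detoxifies the epoxide of aflatoxin, had a lowest, median and highest value of 9.82, 10.14 and 10.25 in Ppara KO livers, against 9.70, 9.85 and 9.997 in WT livers. Of the Ppara KO animals 5 lay above every WT animal, and animal 5 lay within the WT range. Gsta3 averaged 10.11 ± 0.16 in Ppara KO livers and 9.85 ± 0.11 in WT livers (SD, n = 6 each), a difference of 0.26 (SE 0.0813, 95% interval 0.09 to 0.44) whose limma adjusted p of 0.0535 missed the threshold. Gsta3 stayed uncalled in 21 of 26 alternative settings, with an adjusted p of 0.0955 over all clusters. It passed with a variance prior that follows intensity (adjusted p = 0.0185), with array weights (0.04) and when the dimmer part of the genes was left out of the test (0.0212). It also passed without Ppara KO animal 5 (adjusted p = 0.0115) or without WT animal 3 (0.0486). Each was the animal of its group nearest the other genotype, so leaving it out widens the difference by construction.

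Gsta4, which clears the lipid peroxidation product hydroxynonenal, had values of 8.39, 8.78 and 9.01 in Ppara KO livers, against 8.18, 8.61 and 9.11 in WT livers. Both the lowest and the highest liver were WT animals. Its difference of 0.10 (SE 0.14, 95% interval -0.21 to 0.40, limma adjusted p = 0.768) was within the spread between animals. Gsta1 and Gsta2, which lie near Gsta4 on chromosome 9, were read only in 3 clusters shared with predicted neighbours. The differences of these clusters were 0.35 to 0.38, and none was called (adjusted p over all clusters 0.103 to 0.282). The dimmest of them averaged 2.11 in Ppara KO livers and 1.74 in WT livers, below the array medians of 4.13 to 4.17. The clusters name the same genes, so they are not separate readings of each.

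**Figure D3:**
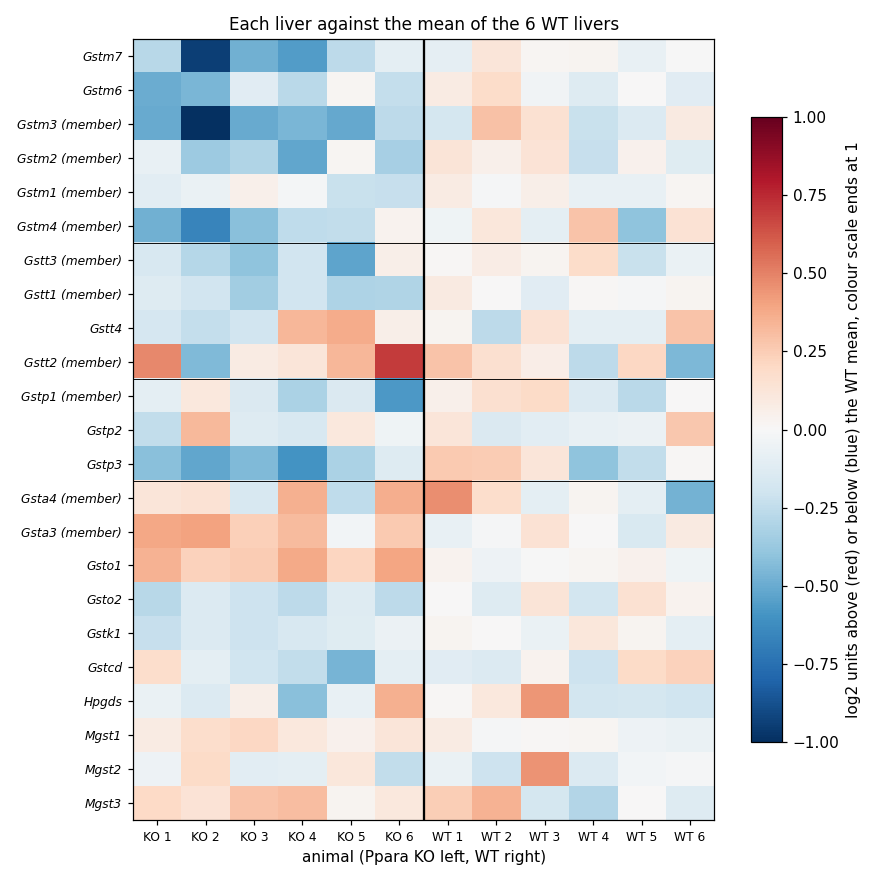
Log2 difference of every liver from the WT mean, for the 10 glutathione S-transferase genes (labelled as members) and 13 further genes of the family (vertical axis), in 6 Ppara KO animals (left) and 6 WT animals (right). Red is above and blue below the WT mean, and the colour scale ends at 1. The mu class genes at the upper left are mostly blue in Ppara KO livers, and Gstm1 is pale. Ppara KO animal 2 is the darkest for Gstm3, Gstm4 and Gstm7, and its Gstm3 lies beyond the scale.

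The animals of one genotype did not move in step across the family. Ppara KO animal 2 was the lowest of its group for Gstm3, Gstm4 and Gstt2 and for Gstm7 and Gstt4 outside the 10 genes, while it was the highest of its group for Gsta3 and Gstp1. Ppara KO animal 6 was the highest of its group for 10 of 23 measured family genes, Gstm3, Gstm4, Gstt2 and Gstt3 among them. It was the lowest for Gstm1 and Gstp1, and for Mgst2 outside the 10 genes. The mean over the 10 genes ran from 8.30 to 8.52 in Ppara KO livers and from 8.43 to 8.65 in WT livers, so the family mean overlapped between genotypes. Ppara KO animal 2 had the lowest of these means.

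Of the family genes outside the 10, 13 were measured on their own. Of these 1 rose and 2 fell, where 4.46% of all genes rose and 5.77% fell. Gsto1, an omega class enzyme that reduces dehydroascorbate and methylated arsenic, was the one that rose. Its values were 8.82, 8.91 and 9.004 in Ppara KO livers, against 8.56, 8.62 and 8.65 in WT livers. The ranges did not overlap, and the difference was 0.30 (SE 0.0588, limma adjusted p = 0.00385), 1.23-fold higher. The 2 that fell were Gstm7 and Gstp3, a count that ran from 0 to 3 with 1 animal left out. Not called were the mitochondrial and peroxisomal Gstk1 (-0.15), the omega class Gsto2 (-0.21), Gstcd (-0.15), the prostaglandin D synthase gene Hpgds (-0.048) and the membrane-bound Mgst1 (0.12), Mgst2 (-0.032) and Mgst3 (0.18). Gsto2, Hpgds and Mgst2 were dim, with means below the lowest array median of 4.13. These means were 2.92, 3.86 and 3.30 in Ppara KO livers and 3.13, 3.91 and 3.34 in WT livers. The tyrosine-breakdown enzyme gene Gstz1 was read in a cluster shared with Pomt2 that differed by -0.18 (adjusted p over all clusters = 0.141).

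Genes that supply, spend and clear glutathione were counted in lists written with the earlier results known, against the same background of 10.2% of all genes called. Of 13 genes of glutathione synthesis and its cysteine supply, 3 rose and 3 fell. Gclm, the modifier subunit of the rate-limiting ligase, was higher by 0.29 (limma adjusted p = 0.0102), and Cbs, which makes the cysteine precursor cystathionine, was lower by 0.39 log2 units (difference -0.39, adjusted p = 0.00329). The others were the amino acid transporter Slc38a2 (0.41) and the homocysteine-forming Ahcy (0.37), both higher, and the transporter Slc1a4 (-0.74) and the homocysteine methyltransferase Bhmt (-0.57), both lower. Mat1a (-0.012) and Gnmt (0.12), both of methionine metabolism, were not called. Of 7 genes for conjugate export, 2 rose and 0 fell. They were Abcc3, a pump towards blood (difference 0.62, adjusted p = 3.65e-05), and Abcc2, a pump towards bile (0.27, adjusted p = 0.0314), whose call was lost without Ppara KO animal 1, 3 or 6 or WT animal 1, 2, 3 or 4. The exporters Abcc6 (0.025) and Abcg2 (0.025) were not called. Of 14 genes of glutathione breakdown and mercapturate formation, 1 rose, the cysteine conjugate acetyltransferase Nat8 (0.67), and 3 fell, Ggct (-0.56), Oplah (-0.29) and Cndp2 (-0.27). Nat8 was dim, at 2.76 to 4.02 in Ppara KO livers and 2.26 to 3.04 in WT livers, below the lowest array median of 4.13. The Nat8 call was lost without Ppara KO animal 2, 3, 4 or 6 or WT animal 2, 3, 4 or 5. Lap3 (0.16) and Acy3 (0.0048) were not called. Of 14 glutathione-linked peroxidases, reductases and glutaredoxins, 1 rose, Glrx5 (0.32), and 1 fell, Gpx8 (-0.41), while Gpx1 (-0.12) and Adh5 (0.21) were not called. With 1 animal left out 1 to 3 of these genes rose (2 without WT animal 1 and 3 without Ppara KO animal 5), and the Gpx8 call was lost without Ppara KO animal 1, 3, 5 or 6 or WT animal 3, 5 or 6.

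Regulators of these genes were counted in the same way. Of 15 measured, 4 rose and 1 fell. Nr1i3, which encodes CAR, had values of 10.14, 10.26 and 10.45 in Ppara KO livers, against 9.45, 9.53 and 9.66 in WT livers, without overlap (difference 0.75, limma adjusted p = 8.11e-06). The others that rose were Bach1, a repressor at antioxidant response elements (0.55), Cebpa (0.38) and Cebpb (0.37), and the one that fell was Nfe2l1, a relative of NRF2 (-0.41). The Cebpb call was lost without Ppara KO animal 2, 4 or 5 or WT animal 2, 5 or 6, and Hnf4a (0.12) and Rxra (0.049) were not called. Nfe2l2, the gene of NRF2 itself, differed by 0.055 (adjusted p = 0.747) and was named after its values were seen. Of 14 NRF2 target genes outside the family, 3 rose, Ephx1 (0.43), Gclm and Hmox1 (0.32), and 1 fell, Pgd (-0.43), while Osgin1 (-0.33) and Gclc (-0.17), the catalytic subunit of the glutathione ligase, were not called. The Hmox1 call was lost without Ppara KO animal 1, 2, 3 or 5 or WT animal 1, 4, 5 or 6. Of 17 CAR and PXR target genes outside the family, 7 rose and 2 fell. The heme synthesis gene Alas1 (1.21) and Cyp3a25 (0.97) were among those that rose, and those that fell were Cyp2b10 (-1.63), a gene commonly used as a readout of CAR, and Cyp2b9 (-0.29). Cyp2c29 (0.14) and Aldh1a1 (-0.11) were not called. The lists share genes, among them Gclm, Ephx1, Abcc2 and Abcc3.

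**Figure D4:**
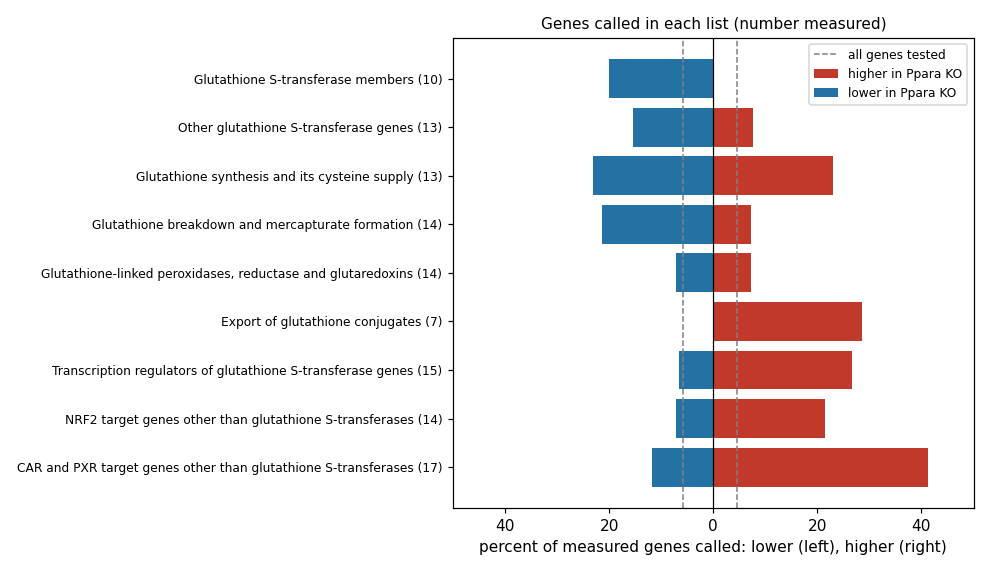
Percentage of the measured genes of each list called lower in Ppara KO (blue, left of 0) or higher in Ppara KO (red, right of 0), with the number measured in brackets. Dashed lines are the percentages over all genes tested, 5.77% lower and 4.46% higher. The 10 glutathione S-transferases have bars only to the left and the conjugate exporters only to the right.

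Other features of the livers were read beside these values, and some of them moved with genotype. The array gave Ppara at 8.01 ± 0.13 in Ppara KO livers and 7.98 ± 0.16 in WT livers (SD, n = 6 each; difference 0.032, exact 2-sided permutation p = 0.712 over 924 assignments). The stretch of Ppara that the probes read and the stretch that is deleted are not known here, and this signal is no check of the labels. The mean of 10 hepatocyte markers ran from 12.28 to 12.35 in Ppara KO livers and from 12.27 to 12.31 in WT livers. For the counts that follow, 10.2% of all genes were called, 5.77% lower and 4.46% higher. Of 13 clock genes 12 were called, 8 higher and 4 lower (Npas2, Arntl, Nfil3 and Clock). The output gene Dbp was at 9.05 to 10.17 in Ppara KO livers and 5.99 to 7.09 in WT livers. Ppara KO animal 2, the lowest for Gstm3, had the lowest Dbp of its group and the highest mean of 8 Kupffer cell and macrophage markers, 8.46, where the other 5 Ppara KO livers ran from 7.68 to 7.93 and WT livers from 7.48 to 7.88. The mean of 8 adipocyte markers ran from 4.28 to 4.56 in Ppara KO livers and from 4.50 to 6.13 in WT livers, with WT animals 1, 3 and 5 highest, and 3 of the 8 fell (Plin4, Lipe and Adipoq, the last not without Ppara KO animal 1, 2, 3 or 6 or WT animal 3). Of 7 cholangiocyte markers 2 fell, Krt19 (-0.26, a call that 6 animals each ended when left out) and Sox9 (-0.39, 8 animals), and the mean of the list ran from 3.69 to 4.12 in Ppara KO livers and from 3.80 to 4.04 in WT livers. What part these features have in the Gstm3 and Gstt1 values was not tested. In whole liver fewer cells of a type and less RNA per cell cannot be told apart. Without WT animals 1, 3 and 5 Gstm3 differed by -0.61 (limma adjusted p = 0.0638) and Gstt1 by -0.26 (adjusted p = 0.101). Neither gene was called with 3 WT animals left, where fewer animals raise the error by construction. Both differences were larger in size than in the reported fit (-0.56 and -0.24), and Gstm4 was called lower in this setting.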

How the data were processed

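Liver RNA of 6 Ppara KO and 6 WT female mice was measured on 12 1-colour arrays. The authors deposited log2 values, made with RMA and Partek according to the submitters' processing notes (no version named). RMA gives all arrays a common distribution, which hides a shift shared by most genes, and compresses differences of dim genes. Array medians ran from 4.13 to 4.17, and correlations between arrays from 0.979 to 0.987. Precision is limited by how few arrays there are.

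The platform annotation listed 25335 of 41345 clusters, 23521 with 1 symbol, 1814 with several, and left 16010 unlisted. The cluster with the highest mean stood for a gene, which gave 22180 genes. Limma 3.58.1 in R 4.3.3 fitted 1 mean per genotype (lmFit and eBayes, 2-sided), with Benjamini-Hochberg adjustment. A second fit over all clusters served the joint ones. The fit was tested on simulated data. The labels number the mice within a genotype.

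The 10 genes and all lists were chosen with earlier results of these data known. The rule for naming genes took Ppara, the whole family, up to 5 called genes per list with the smallest adjusted p and, in the pathway and zonation lists, the 2 uncalled genes with the highest level, and every gene of a count of 5 or fewer. Ahcy and Nfe2l2 are outside it or chosen after their values were seen. Alternatives covered the variance prior, array weights, normalization, filters, cluster choice, thresholds, the replicate number as a block and left-out animals. Promoter windows are RefSeq sequence of GRCm38.p6.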

Additional observations from a re-analysis of the deposited data

Results flagged for a closer look

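Gstm3 in Ppara KO livers held 1 animal far from the rest: animal 2 was at 7.71 and the nearest of the other 5 at 8.32, a gap of 0.711 of the group's whole range. Without this animal Gstm3 was still lower in Ppara KO (difference -0.45, limma adjusted p = 0.0123). Mgst2, a membrane-bound relative, held 1 such animal among the WT livers: animal 3 was at 3.79 (3.788) and the nearest of the others at 3.32, a gap of 0.704 of the range. All Mgst2 values lay below the lowest array median of 4.13. The 23 family genes, Ppara and the joint cluster gave 50 groups of 6 animals, of which these 2 stood out, and chance marks about 1 group in 20.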

How the results depend on the processing

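Of 1812 differences recomputed for 70 genes and clusters under 26 alternatives, 1554 kept their direction and their side of the threshold, 226 lost and 16 gained a call, and 16 changed sign, all of these in genes that were not called. Ppara turned to -0.022 without WT animal 4 (-0.022 to 0.072 over each animal left out). Gstp2 turned without WT animal 6, Ppara KO animal 1 or 4 (-0.093 to 0.030), and Gstt4 without WT animal 2, Ppara KO animal 4 or 5 (-0.039 to 0.086). Hpgds turned without WT animal 3 or Ppara KO animal 4 (-0.13 to 0.041), and Mgst2 without WT animal 3 or Ppara KO animal 6 (-0.078 to 0.058). Without WT animals 1, 3 and 5 Hpgds turned to 0.046 and Mgst2 to 0.086. Without WT animals 1, 2 and 3 Gstt4 turned to -0.00068, Hpgds to 0.14 and Mgst2 to 0.027. Of the 10 genes, 2 were called lower; 0 were at an adjusted p under 0.01, against a 1.2-fold minimum change or without WT animals 1, 2 and 3, 1 (Gstm4) was without WT animals 1, 3 and 5, and 2 to 4 were with 1 animal left out, 4 without Ppara KO animal 6. The count called higher was 0, and 1 (Gsta3) with an intensity trend, array weights or only genes at or above the median level (0 to 1 with 1 animal left out). Their clusters gave 2 calls over all clusters, and 0 under each of the stricter threshold, the minimum change, the sets of 3 WT animals left out and the block (0 to 2 with 1 animal left out, 0 without WT animal 2 or 6 or Ppara KO animal 3). All genes gave 2268 calls, and 1070 at the stricter threshold, 329 against the minimum change, 1008 without WT animals 1, 3 and 5 and 882 without WT animals 1, 2 and 3, or 1817 to 2130 with 1 animal left out; the lists of other genes gave 50, and 32, 19, 30 and 27 in the same order (42 to 48). With the replicate number as a block 1 of the 10 genes was lower, since Gstt1 had an adjusted p of 0.0503; the numbers do not pair the animals, since same-numbered animals deviated with correlations of -0.047 to 0.043 and no Ppara KO animal correlated best with its own number. The fewer animals in the smaller sets raise the error by construction. WT animals 1, 2 and 3 also had the highest WT means over these 10 genes, 8.59 to 8.65. Leaving them out therefore lowers the WT level of the 10 genes by construction. The median difference of the 10 genes was -0.11 without them, against -0.22 in the reported fit. The cause of the other changes was not tested. With any 1 animal left out 7 of the 10 genes were below 0; settings that change only the variance or the threshold cannot move a sign.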

Other observations

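Genes that mark the zones of the liver lobule were also counted, since several glutathione S-transferases are known to be zonated. Of 12 genes of pericentral hepatocytes, the cells around the central vein, 4 rose and 1 fell in Ppara KO livers, against 10.2% of all genes called. The glutamate transporter gene Slc1a2 was higher by 0.76 (limma adjusted p = 7.1e-06) and the ornithine aminotransferase gene Oat by 0.71 (adjusted p = 0.000291), and Cyp2e1 (0.24) and Cyp1a2 (0.25) rose as well. Lgr5, a receptor of the WNT pathway, was lower (difference -0.58, adjusted p = 0.00686). Of 10 genes of periportal hepatocytes 1 rose, Pck1 (0.30), and 1 fell, Cdh1 (-0.45). The call of Pck1 was lost without Ppara KO animal 1, 2, 5 or 6 or WT animal 1, 3 or 6, and that of Cdh1 without Ppara KO animal 3, 5 or 6 or WT animal 1, 2, 3, 4 or 6. Glul (0.17) and Rgn (0.043) of the pericentral list and Cps1 (0.011) and Cyp2f2 (0.11) of the periportal list were not called.

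Single genes of other cell types were called as well. Of 8 Kupffer cell and macrophage markers 1 rose, Cd5l (0.45, limma adjusted p = 0.0351), and of 8 lymphocyte markers 1 rose, Cd8a (0.46, adjusted p = 0.0115), in each list a share near the 10.2% called over all genes. The Cd5l call was lost without Ppara KO animal 1, 2 or 6 or WT animal 2, 3, 4, 5 or 6. Among 10 hepatocyte markers Tdo2 rose (0.41, adjusted p = 0.00117).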
